A study of Mus musculus with 2 samples.

Results

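The clustered protocadherins are 58 genes of the 43346 gene rows that the authors quantified in mouse cortex. They were taken as every gene whose symbol is Pcdha, Pcdhac, Pcdhb, Pcdhga, Pcdhgb or Pcdhgc followed by a number, and all 58 were present in both libraries' tables. They comprise 14 genes of the alpha cluster, 22 of the beta cluster and 22 of the gamma cluster. Within these, 12 alpha, 22 beta, 12 gamma-A and 7 gamma-B genes are the alternative members, and 5 genes (Pcdhac1, Pcdhac2, Pcdhgc3, Pcdhgc4 and Pcdhgc5) are the C-type members. Polyadenylated RNA longer than 200 nt was sequenced strand-specifically, as paired-end reads, from cortical plate of C57BL/6J mice aged 8 weeks. Male and female littermates were pooled and spike-in RNAs were added, and 2 biological replicates make up the only group. No treatment, genotype or second tissue was sampled, so the comparisons are among the members and between these 2 libraries.

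Clustered protocadherins are transmembrane adhesion proteins of the cadherin superfamily that bind identical copies on the facing membrane. Each neuron uses a small set of alternative isoforms, chosen by promoter, and this set lets neurites of the same cell recognise and avoid each other. In the alpha and gamma clusters each variable first exon, which encodes the extracellular and transmembrane parts, is spliced to 3 constant exons shared by the whole cluster, whereas beta genes carry no constant exons. The C-type genes are known to be used more uniformly across neurons than the alternative ones.

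The members lie head to tail on chromosome 18 of mm10 (GRCm38), all on the plus strand. The alpha genes span positions 36930184 to 37187661, the beta genes 37264938 to 37524479 and the gamma genes 37661793 to 37841873, and together they cover 911.7 kb. Reads from the constant exons could belong to any gene of the alpha or of the gamma cluster, which bears on every gene-level value in these 2 clusters. For windows of 1 read length along the full-length transcript, the median alpha or gamma member shared 46.6% of its windows with other annotated transcripts, and the smallest share was 40.6%. Within the variable exon alone the median was 2.21%. The exception was Pcdha4, with 96.1% of its variable-exon windows also in other annotated transcripts, so that its level depends on how the authors' estimate divided those reads. The largest share of a variable exon found in another member was 37.4%, for Pcdhga4. No beta member shared more than 7.71%. Levels are given as TPM (a length-scaled unit in which every library sums to the same total) for replicate 1 and replicate 2, and means carry the SD over both libraries (n = 2).

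The libraries held 88327121 and 88643335 expected counts on gene rows, of which the members took 0.0862% and 0.0890%. The 4 general neuron markers summed to 2360 and 2148 TPM, with a median log2 ratio of 0.01 on TMM-scaled counts (2 higher and 1 lower in replicate 2). The 4 excitatory neuron markers summed to 1611 and 1357 TPM, with a median of -0.09 on that scale (0 higher and 3 lower). Over all tested genes the median log2 ratio of TPM was -0.16. The libraries differed in regional markers: 10 of 10 genes marking striatal projection neurons were higher in replicate 2 (summed level 138 TPM in replicate 1 and 410 TPM in replicate 2). Of 6 genes marking dentate gyrus and hippocampal neurons, 5 were lower there, and the 6 summed to 43.5 and 30.7 TPM. All 4 oligodendrocyte markers were also higher in replicate 2, at 2808 and 3441 TPM in sum. So were 4 of 4 ependyma markers (9.81 and 14.4 TPM) and 3 of 4 choroid plexus markers (17.01 and 22.23 TPM). Of 4 inhibitory neuron markers, 3 were higher (234 and 237 TPM). Kl of the choroid plexus list was lower, and Wfs1 of the hippocampal list was higher. Of 4 astrocyte markers 3 were higher, of 3 oligodendrocyte precursor markers 1 was higher and 2 lower, and of 4 microglia markers 2 were lower. Higher and lower here mean past the exact binomial test described below. By that test 14.8% of all genes tested were higher in replicate 2 and 14% lower. None of the 10 striatal and 6 hippocampal markers was at 0 in either library. The part of these marker differences in the differences between libraries reported for the members was not tested. In bulk tissue, fewer cells of a type and less RNA per cell cannot be told apart.

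Most clustered protocadherins were present at a few TPM, and 53 of 58 reached 1 TPM in both libraries. The median member was at 2.67 TPM in replicate 1 and 2.49 TPM in replicate 2. The 58 summed to 306 ± 10.1 TPM. The 5 C-type members made up 52.1% of that sum, beta members 16.5%, gamma-A members 15.5%, alpha members 9.29% and gamma-B members 6.59%. Members below 1 TPM in at least 1 library were Pcdha1, Pcdha8, Pcdhb1, Pcdhb4 and Pcdhb21. Among members at 1 TPM or more, the SD between libraries was a median 5.21% of the mean.

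**Figure D1:**
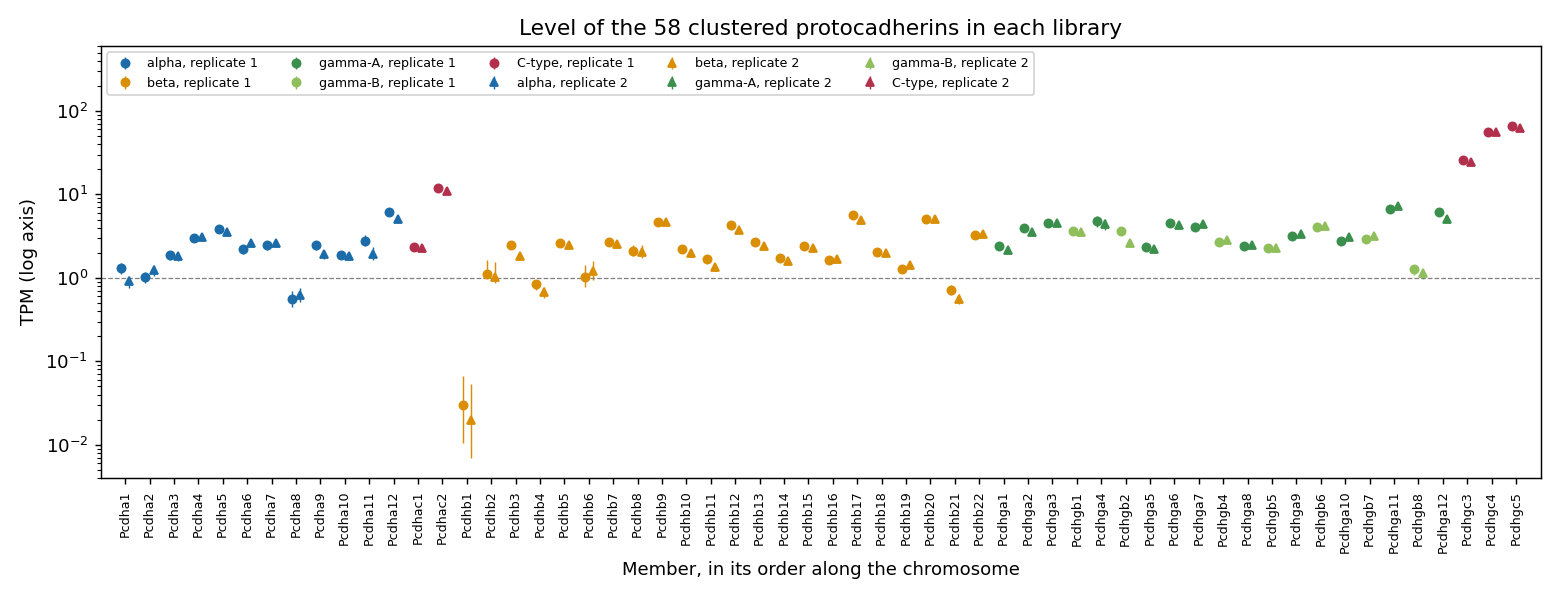
TPM on a log axis of each of the 58 members in chromosomal order, circles for replicate 1 and triangles for replicate 2, with bars for the credible range deposited with each value and colours for the subclusters. The 3 gamma C-type genes at the right end stand between 24.4 and 66.5 TPM, the alternative members lie between 0.56 and 7.30 TPM apart from Pcdhb1, and Pcdhb1 is at 0.03 and 0.02 TPM.

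Ordered by mean TPM, the members ran from Pcdhgc5 through Pcdhgc4, Pcdhgc3, Pcdhac2 and Pcdhga11 down to Pcdhb1. Neighbours in this order were counted as separated where the credible ranges joined over both libraries did not overlap. Only 4 of 57 neighbouring pairs were separated: Pcdhgc4 over Pcdhgc3, Pcdhgc3 over Pcdhac2, Pcdhac2 over Pcdhga11 and Pcdha8 over Pcdhb1. Pcdhgc5 and Pcdhgc4 were not separated, and neither was any neighbouring pair between Pcdhga11 and Pcdha8. The alternative members thus formed a graded series with no break in it, apart from Pcdhb1.

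The C-type members differed among themselves by more than an order of magnitude at the gene level. Pcdhgc5 (ENSMUSG00000102543, 37819513 to 37841873), whose product binds GABA-A receptors, was listed at 66.5 and 61.8 TPM. Pcdhgc4 (ENSMUSG00000023036, 37815079 to 37841873), the isoform known to be needed for survival of neurons, was listed at 55.7 and 56.5 TPM. Pcdhgc3 (ENSMUSG00000102918, 37806364 to 37841873), which acts on dendrite branching, was at 26.1 and 24.4 TPM. All 3 were above every alternative member in both libraries. In the alpha cluster, Pcdhac2 (ENSMUSG00000102697, 37143503 to 37187657), known from the axon spacing of serotonin neurons, was at 11.8 and 11.1 TPM. Pcdhac1 (ENSMUSG00000103255, 37090013 to 37187657) was at 2.35 and 2.28 TPM, within the range of the alternative alpha members. The median of the 5 C-type members was 10.3 times the median of the other 53 members.

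The gene-level value of Pcdhgc4 rested mostly on a short transcript whose own junction had 1 read. Its full-length transcript, Pcdhgc4-201, which holds the 2905 nt variable exon, had 3.64 and 3.15 TPM. A shorter coding transcript, Pcdhgc4-203, with a first exon of 153 nt and a length of 2272 nt, had 51.8 and 52.9 TPM and 93.2% ± 0.339 of the gene (n = 2). In expected counts, Pcdhgc4-203 held 7259 and 8101, and Pcdhgc4-201 held 1189 and 1127. The deposited junction table on the older mm9 assembly counts reads that cross from a first exon into constant exon 1, in a pair of columns that are not tied to the replicates. It held 68 and 58 reads for the Pcdhgc4-201 junction and 0 and 1 for the Pcdhgc4-203 junction. The variable exon of Pcdhgc4 was at 0.636 and 0.633 RPKM (reads scaled to exon length and depth) in the deposited mm9 exon table. Most of the Pcdhgc4 level was thus on a form with 1 junction read.

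Pcdhgc5 was split in a similar way, but its full-length form was supported by many junction reads. Pcdhgc5-201, with a variable exon of 2622 nt, had 31.5 and 28.4 TPM from 9687 and 9572 expected counts, and its junction held 435 and 428 reads. Pcdhgc5-204, a transcript of 593 nt, had 32.0 and 31.0 TPM from 850 and 884 expected counts. It made up 49.1% ± 1.39 of the gene's TPM (n = 2). The annotated junction of Pcdhgc5-204 into constant exon 1 had 0 reads. A junction of the same intron length (5308 nt), with both ends 4 nt further downstream, had 123 and 123 reads. The intron of that junction starts with GT, and its spliced sequence is not the same as that of the annotated junction. Another form, Pcdhgc5-203, had 2.58 and 1.85 TPM and 15 and 10 junction reads by matched intron length, 25 in all. Pcdhgc3 was simpler: Pcdhgc3-201 held 97.1% of its TPM, at 25.4 and 23.7 TPM, and its junction had 323 and 306 reads.

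**Figure D2:**
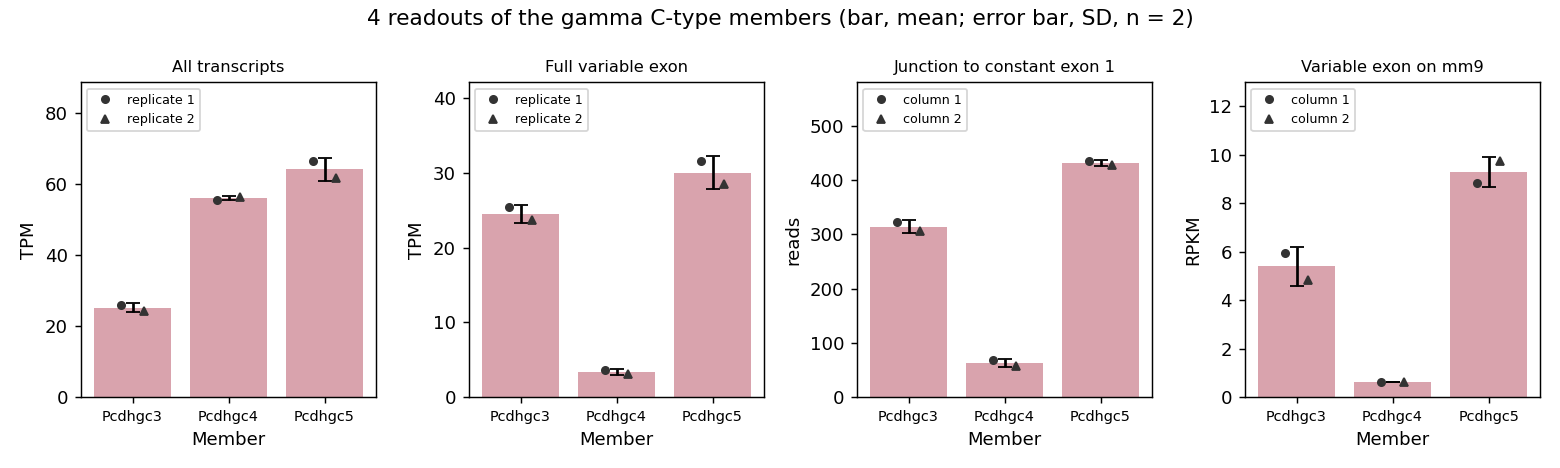
4 readouts of Pcdhgc3, Pcdhgc4 and Pcdhgc5: TPM over all transcripts, TPM of transcripts with the full variable exon, junction reads into constant exon 1, and mm9 RPKM of the variable exon. Bars are means, error bars SD and points the 2 replicates or columns; Pcdhgc4 is near Pcdhgc5 in the leftmost panel (55.7 and 56.5 against 66.5 and 61.8 TPM) and the lowest of the 3 in the other panels.

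The order of the gamma C-type members therefore depended on the readout. Over all transcripts, Pcdhgc4 had 2.22 times the TPM of Pcdhgc3. Pcdhgc3 had 7.22 times the TPM of Pcdhgc4 over transcripts with the full variable exon, and 4.99 times its junction reads. Both of these readouts leave out the short forms by definition. In the mm9 exon table the variable exon of Pcdhgc3 was at 5.95 and 4.84 RPKM, which is 9.35 and 7.64 times that of Pcdhgc4, and that of Pcdhgc5 at 8.83 and 9.73 RPKM. Pcdhgc5 was the highest of the 3 in each of these readouts, with 6.85 times the junction reads of Pcdhgc4 and 1.37 times those of Pcdhgc3. Counted over transcripts with the full variable exon only, a choice made after these values were seen, the C-type members made up 33.8% of the members' TPM in place of 52.1%.

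Junction reads gave a second view of how each cluster divides its first exons. All 14 alpha and 22 gamma members matched a junction of the length their annotation gives. The members' full variable exons were joined to constant exon 1 by 718 reads in the alpha cluster and 2900 in the gamma cluster. In the gamma cluster, C-type members held 55.8% of these reads (95% Wilson interval 54.0% to 57.6%), gamma-A members 33.0% and gamma-B members 11.2%. By TPM the same groups held 68.3% ± 0.182, 22.3% ± 0.220 and 9.46% ± 0.0375 (SD, n = 2). In the alpha cluster, Pcdhac1 and Pcdhac2 together held 35.8% of junction reads (32.4% to 39.4%) and 32.6% ± 0.454 of TPM. Pcdhac2 alone held 28.0% of alpha junction reads and 27.1% ± 0.277 of alpha TPM. Intervals of shares cover counting error only.

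The TPM share and the junction share of a member differed by more than 1.5 times for 9 of the 36 alpha and gamma members. For 3 the TPM share was the larger. Pcdhgb8, annotated as a polymorphic pseudogene, had 0.563% of gamma TPM and 0.0690% of junction reads (interval 0.0189% to 0.251%), an 8.16-fold gap resting on 2 reads. Pcdhgc4 had 26.3% of gamma TPM and 4.34% of junction reads (3.66% to 5.15%), a 6.06-fold gap. Pcdha8 had 1.42% of alpha TPM and 0.696% of junction reads (0.298% to 1.62%), an interval that contains the TPM share. For the other 6, all in the gamma cluster, the junction share was the larger. The widest such gap was that of Pcdhga11, with 7.31% of junction reads (6.42% to 8.32%) and 3.30% of TPM. Pcdhgb6 followed at 3.79% and 1.95%, and Pcdhga6 at 3.97% and 2.05%. Pcdhgc3 held 21.7% of junction reads (20.2% to 23.2%) against 11.8% ± 0.297 of TPM. Counting only transcripts with the full variable exon brought 6 of these 9 within 1.5 times, among them Pcdhgc3 at 20.2% and Pcdhga11 at 5.81% of gamma TPM. Pcdhgc4 went to 2.79%, now below its junction share, and Pcdha8 and Pcdhgb8 kept gaps of 2.16 and 14.3 times. Other members moved away from their junction share, such as Pcdhgb4, Pcdhga1, Pcdhgb7 and Pcdha6. In all, 11 of 36 then differed by more than 1.5 times, so that this count was not lower.

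**Figure D3:**
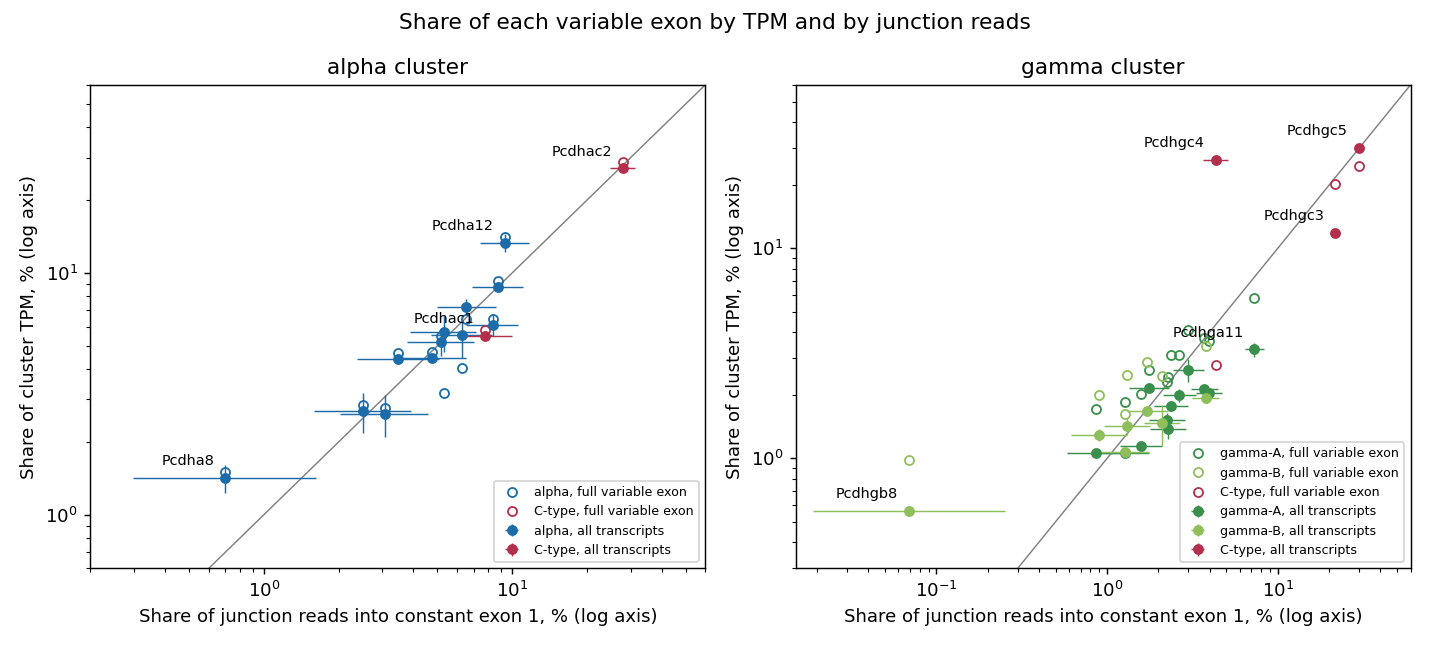
Share of cluster TPM (vertical) against share of junction reads into constant exon 1 (horizontal), in percent on log axes, for alpha members on the left and gamma members on the right. Filled points count every transcript (bars: SD over the 2 libraries and 95% Wilson intervals), open points only transcripts with the full variable exon, and the line marks equal shares; Pcdhgc4 lies far above the line at 26.3% and moves to 2.79% as an open point, and Pcdhgb8 is the leftmost gamma point at 0.0690%.

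Among the alternative alpha members, the gene closest to the constant exons had the highest TPM. Pcdha12 was at 6.19 and 5.07 TPM, and the next were Pcdha5 at 3.88 and 3.50 TPM and Pcdha4 at 3.01 and 3.10 TPM. The lowest was Pcdha8 at 0.56 and 0.63 TPM. Pcdha1 at 1.30 and 0.91 TPM and Pcdha2 at 1.02 and 1.23 TPM followed and changed places between the libraries. The alternative alpha members were at a median of 2.33 and 1.93 TPM. By junction reads Pcdha12 barely stood out, with 35 and 32 reads beside 23 and 40 for Pcdha5 and 28 and 32 for Pcdha7. Pcdhac2 had 89 and 112 reads and Pcdha8 had 2 and 3. Position along the cluster and mean TPM had a Spearman coefficient of 0.364 over the 12 genes. The coefficient was 0.295 for beta, 0.343 for gamma-A and -0.464 for gamma-B members, so its sign was not shared by all subclusters. These values are descriptions over genes that share both libraries and, in the alpha and gamma clusters, the constant exons.

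The beta members, whose reads are nearly all their own, lay between 0.56 and 5.62 TPM except for Pcdhb1. Pcdhb17 was at 5.62 and 4.94 TPM, Pcdhb20 at 5.01 and 5.06 TPM, and Pcdhb9 at 4.72 and 4.62 TPM. Pcdhb1, the beta gene nearest to the alpha cluster, had 5 and 4 counts and 0.03 and 0.02 TPM, and it was the only member below 10 counts over both libraries. Pcdhb21 was the next lowest at 0.72 and 0.56 TPM. Of the 22, 19 reached 1 TPM in both libraries, and the median was at 2.17 and 2.00 TPM. Pcdhb8 was at 2.09 and 2.05 TPM here and is listed at 0 in both columns of the mm9 exon table.

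By TPM the gamma-A and gamma-B members were more even, and all 19 reached 1 TPM in both libraries. Junction reads were not more even, and over both columns they ran from 2 for Pcdhgb8 to 212 for Pcdhga11. Among the alternative alpha members they ran from 5 for Pcdha8 to 67 for Pcdha12. Pcdhga11 led at 6.77 and 7.30 TPM, followed by Pcdhga12 at 6.23 and 5.06 TPM and Pcdhga4 at 4.79 and 4.44 TPM. The place of Pcdhga4 did not hold in replicate 2, where Pcdhga3 was at 4.58 TPM, or by junction reads, of which it had 27 and 24 against 53 and 55 for Pcdhga3. The lowest gamma-A members were Pcdhga5 at 2.33 and 2.20 TPM and Pcdhga1 at 2.38 and 2.17 TPM. Among gamma-B members Pcdhgb6 was at 4.10 and 4.20 TPM, Pcdhgb1 at 3.66 and 3.52 TPM and Pcdhgb2 at 3.69 and 2.61 TPM. Pcdhgb5 was at 2.29 TPM in each library, and Pcdhgb8 was the lowest at 1.27 and 1.13 TPM. By junction reads Pcdhga11 also led the alternative gamma members, with 89 and 123 reads. The median of the 19 was 1.56 times the beta median. The alternative alpha median was 1.08 times the beta median, and its direction changed with the readout.

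The constant exons carried more reads than the junctions leading into them. In the gamma cluster, constant exon 1 to 2 was crossed by 2209 and 2226 reads and constant exon 2 to 3 by 1992 and 2003. The corresponding alpha junctions had 584 and 602 reads, and 410 and 421 reads. Reads from first exons to the annotated start of constant exon 1 were 1529 and 1559 in the gamma cluster. In the alpha cluster they were 339 and 399. The gamma count leaves out the 123 and 123 reads of the Pcdhgc5 junction ending 4 nt further downstream. Per 100 reads from constant exon 1 to 2, reads to the annotated start were 69.6 ± 0.579 in the gamma cluster. The alpha value was 62.2 ± 5.82. Alpha constant exon 3 can be spliced internally, which gives a different cytoplasmic tail. This internal junction had 61 and 72 reads, or 16.0 ± 1.57 per 100 reads of constant exon 2 to 3. Transcripts with that split exon held 13.4% ± 0.424 of the TPM of spliced alpha transcripts. In the gamma cluster, 1.36% ± 0.0238 of reads from constant exon 1 used an acceptor 3 nt upstream of the annotated start of constant exon 2 (30 and 31 reads).

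Few other members had a divided transcript composition. Of 21 members with more than 1 transcript in the tables, 4 had a leading transcript under 60% of the gene: Pcdhgc5, Pcdha11, Pcdha6 and Pcdhb22. Pcdha11-203, with the split constant exon, held 43.3% and 45.4% of Pcdha11. For Pcdha6 the leader by mean percent, Pcdha6-203, is annotated for nonsense-mediated decay and held 49.8% and 45.0%, while the coding Pcdha6-201 held 50.2% and 40.5%. Pcdhb22-202, the single-exon form, held 55.7% and 55.6% of its gene, and Pcdhb22-201, which has 2 exons, held 44.3% and 44.4%.

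Between the libraries, the members differed by small amounts and mostly upward in replicate 2. The count of each gene was split between the libraries and tested against the split of their TMM sizes (edgeR's scaling) in an exact binomial test, two-sided, adjusted by Benjamini-Hochberg over all 19829 genes with at least 10 counts. Of 57 members tested, 25 passed the 0.05 threshold (43.9%), beside 28.7% of all genes tested. Among the 11725 genes within the count range of the tested members, 31.9% passed. Of the 25 members, 18 were higher and 7 lower in replicate 2, beside 14.8% and 14% of all genes. The test sets read counts of these 2 libraries side by side and takes no account of variation between animals. With a negative binomial exact test at the common dispersion, 0 members passed, beside 1.31% of all genes, and 2 had an unadjusted p under 0.05. That dispersion was estimated from the same 2 libraries. The differences under test are therefore part of it, and this test is no independent check. Log2 ratios (replicate 2 over replicate 1) had a median of 0.08 for the members and 0.00 for all genes tested. On the TPM scale the median log2 ratio was -0.16 over all tested genes and -0.07 over the members, so that relative to all genes the members were higher on either scale. Every tested member lay between -0.48 and 0.44 (log2), and 45 of 57 were within 1.2-fold.

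The calls were unevenly spread over the subclusters. They included 8 of 12 alpha, 7 of 12 gamma-A, 4 of 7 gamma-B, 2 of 5 C-type and 4 of 21 tested beta members, and this spread was not tested. The alpha and gamma counts contain shared constant-exon reads divided among members by the authors' estimate, and the counting test does not include the error of that division. A comparison of the deposited credible TPM ranges, added after the data were seen, rescaled replicate 2 by the median TPM ratio of all genes. The ranges were apart for 11 members, all among the 25, beside 18.4% of all genes. These were 1 alpha member, 4 gamma-A, 2 gamma-B, 1 C-type and 3 beta members.

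Members of the same cluster moved in opposite directions. In the alpha cluster Pcdha6 was 1.35-fold higher in replicate 2 (95% interval 1.219 to 1.501, 635 and 842 counts). Pcdha2 was 1.31-fold higher (1.13 to 1.53), and Pcdha7 and Pcdha4 were 1.19-fold and 1.12-fold higher. Pcdha11 was 1.40-fold higher in replicate 1 (1.25 to 1.56, 752 and 528 counts), as were Pcdha1 by 1.28-fold, Pcdha9 by 1.15-fold and Pcdha12 by 1.09-fold. The alpha members thus split 4 and 4. Of these 8, only Pcdha6 had credible ranges that were apart.

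In the gamma cluster 11 of 13 calls were higher in replicate 2. Pcdhga10 was 1.26-fold higher in replicate 2 (1.15 to 1.38), Pcdhgb7 1.22-fold, Pcdhga11 1.204-fold (1.14 to 1.28, 2088 and 2465 counts), Pcdhgb4 1.19-fold and Pcdhga7 and Pcdhga9 1.17-fold. Pcdhgb6, Pcdhga8 and Pcdhga3 were 1.14-fold higher. Pcdhgb2 went the other way, 1.24-fold higher in replicate 1 (1.13 to 1.35, 1080 and 856 counts), and so did Pcdhga12 by 1.11-fold. Of the C-type members, Pcdhgc4 was 1.12-fold higher in replicate 2 (1.09 to 1.15, 8500 and 9344 counts) and Pcdhgc3 1.04-fold (1.01 to 1.07). Pcdhgc5, Pcdhac1 and Pcdhac2 did not pass, with adjusted p of 0.337, 0.237 and 0.0601 in the exact binomial test.

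In the beta cluster, where counts are almost wholly unshared, 3 genes were higher in replicate 2 and 1 was lower. Pcdhb19 was 1.25-fold higher (1.12 to 1.40, 602 and 739 counts), Pcdhb22 1.15-fold and Pcdhb20 1.13-fold. Pcdhb3 was 1.23-fold higher in replicate 1 (1.09 to 1.39, 605 and 483 counts). The credible ranges were apart for Pcdhb19, Pcdhb20 and Pcdhb3. The beta median log2 ratio was 0.02.

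**Figure D4:**
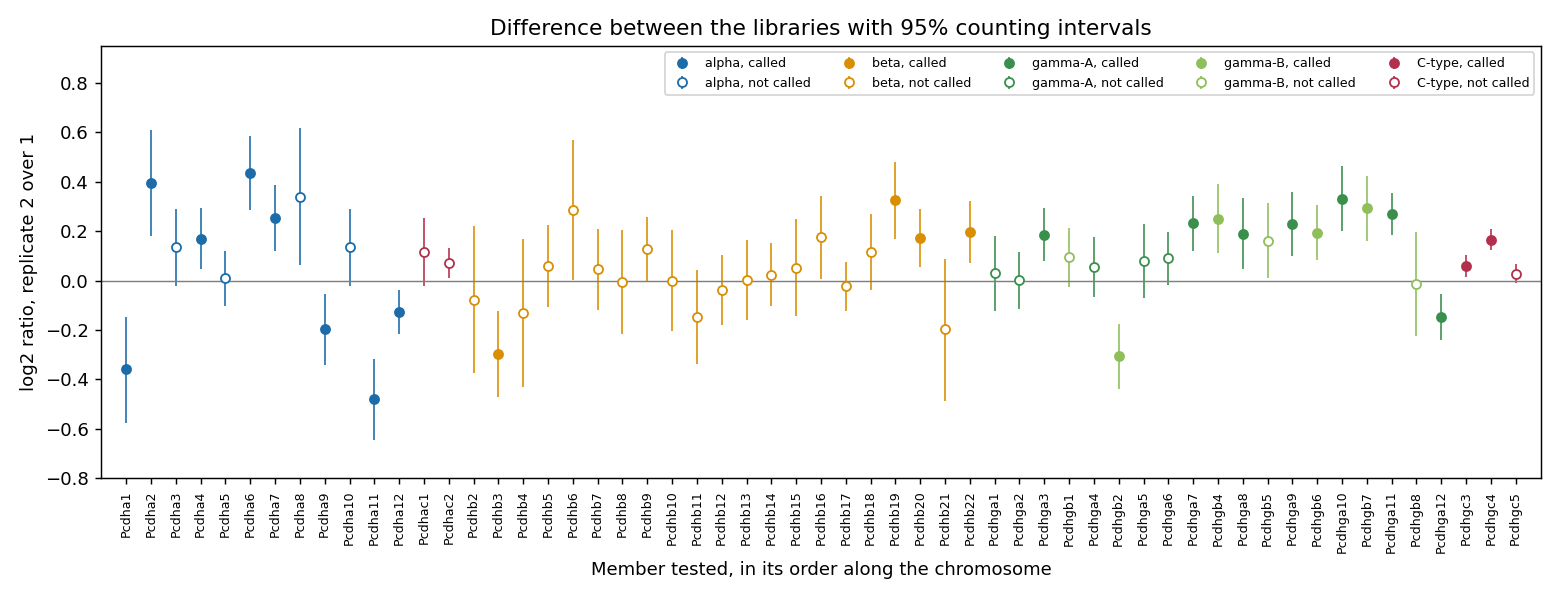
Log2 ratio of replicate 2 to replicate 1 for the 57 members tested, in chromosomal order, with 95% Clopper-Pearson intervals that cover counting error only; filled points passed the exact binomial test after adjustment and open points did not. All ratios lie between -0.48 and 0.44, alpha genes scatter to both sides of 0, and most gamma genes are above it.

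Other genes of the pathway were read from 5 lists of 66 genes in all. Between the libraries 24 of the 66 passed the exact binomial test (28.7% of all genes did), 9 higher (14.8% of all genes) and 15 lower (14%) in replicate 2, and 1 passed the negative binomial test (1.31%). The counts of the single lists are small and were not tested against these shares. Scaled by plain totals, 28 passed, 3 higher and 25 lower, beside 31.2% of all genes in either direction. The median log2 ratio of all genes was -0.03 under that scaling. Shares of all genes by direction are not given for it. Among 19 genes for promoter choice and chromatin at the clusters, 0 were higher and 4 lower. The cohesin subunit gene Rad21 led at 35.9 and 33.0 TPM, then the cohesin loader gene Mau2 at 29.5 and 25.2 TPM and the cohesin gene Smc1a at 21.4 and 19.7 TPM. The DNA methyltransferase gene Dnmt3b was the lowest at 0.56 and 0.47 TPM. Ctcf, whose product anchors the chosen promoters to distant enhancers, was at 16.6 and 15.2 TPM; it is named for this role and not by the rule on levels.

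Among 17 genes for intracellular partners and signalling, 3 were higher and 8 lower. Brk1, a WAVE complex subunit, was the highest at 233 and 219 TPM. The small GTPase gene Rac1 followed at 186 and 170 TPM, and Ptk2b, which encodes a kinase that the alpha and gamma tails inhibit, at 178 and 145 TPM. Ror2, a Wnt receptor gene, was the lowest at 0.39 and 0.33 TPM. Of 10 genes for cleavage and trafficking, 3 were higher and 0 lower in replicate 2. This list was led by Psenen, a subunit gene of gamma-secretase, at 67.5 and 64.6 TPM, Snx1, a sorting nexin gene, at 51.4 and 44.5 TPM, and Aph1a, another gamma-secretase gene, at 47.5 and 46.5 TPM. Psen2 was its lowest gene at 15.5 and 13.7 TPM. Of 8 surface partners and adhesion genes, 1 was higher and 1 lower. Ctnnb1 was at 63.2 and 61.0 TPM, Nlgn2 at 63.5 and 55.1 TPM, Cntnap1 at 50.5 and 44.2 TPM and Cntnap2, the lowest, at 17.8 and 14.3 TPM.

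The 12 nonclustered protocadherins, single genes outside the clusters, had a median level of 7.16 TPM. That is above the 2.58 TPM of the clustered members, and both medians are of mean TPM over the libraries. Pcdh10 was at 40.2 and 41.5 TPM, Pcdh9 at 34.1 and 33.7 TPM, Pcdh1 at 32.1 and 28.2 TPM, and Pcdh12, the lowest, at 0.26 and 0.19 TPM. Of the 12, 2 were higher and 2 lower in replicate 2. Pcdh20 was 1.79-fold higher in replicate 1 (1.66 to 1.93, 2027 and 1109 counts), the only pathway gene past 1.5-fold and the only one that passed the negative binomial test, with an adjusted p of 0.00173.

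Several genes that overlap the clusters share the gamma constant exons without being members. Gm38182, a noncoding transcript gene at 37823879 to 37840382 on chromosome 18, was listed at 20.6 and 13.0 TPM from 800 and 583 expected counts, and 50 and 58 junction reads joined its main first exon to constant exon 1. Gm42416, whose annotation joins an alpha first exon to gamma constant exons, had 0 and 4.69 expected counts. No junction read joined a first exon upstream of the gamma cluster to the annotated start of gamma constant exon 1. These were 0 and 0 reads of 1529 and 1559, where by counting error alone a count of 0 allows up to 3 reads. The annotated introns of this kind are 848742 to 869870 nt long, and the longest member intron with reads is 223482 nt. Whether the alignment could report introns of such length is not known, so the 0 reads cannot show that such transcripts are absent.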

How the data were processed

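Members and gene lists were chosen with earlier results of these data known. Per the file headers, the authors' gene and transcript tables on mm10 give expected counts, which divide reads that fit several genes, and TPM with credible bounds; the level of the bounds, the aligner and the quantifier are not given in the sources used here. The authors' transcript tables also give each transcript as a percent of its gene. The deposited mm9 junction table gives counts of junction reads, and the deposited mm9 exon table gives RPKM, each in a pair of columns that cannot be tied to a replicate. Total depth was 91875460 and 92939474 expected counts. The authors' quantification used annotation release 4, so the shared windows that their estimate met may differ from those counted here. Symbols, transcript types, intron lengths and shared windows came from release 21 of the GENCODE annotation on GRCm38. The row ENSMUSG00000007440, which that release also calls Pcdha11, was named Pcdha10 after RefSeq on the same build. Junctions were assigned to first exons by exact intron length, since no position was converted between builds. A transcript was taken to hold the full variable exon if it had the constant exons and a first exon of at least 90% of the longest.

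Expected counts were rounded and compared between libraries with an exact two-sided binomial test (scipy 1.17.1) for genes with at least 10 counts, on TMM sizes from edgeR 4.0.16, with Benjamini-Hochberg adjustment over all tested genes, called below 0.05. For log2 ratios 0.5 was added to every count. The negative binomial test used edgeR's common biological coefficient of variation of 0.0905, estimated from these libraries. Nothing says that the replicates came from separate litters. The binomial p-values measure counting error between these 2 libraries and hold no estimate of the spread between animals. Reads carry no molecular identifiers, so intervals cover counting error only. The binomial test was also run on simulated counts that held counting error only. There it recovered 85 of 100 genes changed 1.5-fold and called 10 of 19603 unchanged genes. The simulation had no variation between animals and no error from dividing shared reads. It therefore cannot show how many calls in these libraries are false. Genes named with values were the C-type members, the 3 highest and 2 lowest of each other subcluster, members past the threshold, the largest gaps between TPM share and junction share, members whose leading transcript was under 60%, and in each pathway list the 3 highest, the lowest and those past the threshold by 1.5-fold. Other tools were R 4.3.3, DESeq2 1.42.0 (size factors only), Python 3.11.15, numpy 2.4.6, pandas 2.3.3 and matplotlib 3.10.9.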

Additional observations from a re-analysis of the deposited data

Results flagged for a closer look

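Junction reads at sites that the annotation of the members does not contain were seen above the 3 reads that a count of 0 allows, in a table not used for the levels. A junction with the intron length of Pcdhgc5-204 and both ends 4 nt downstream had 246 reads over both columns. Constant exon 1 of the gamma cluster was joined by 61 reads to an acceptor 3 nt upstream of constant exon 2. An unannotated donor with an intron of 5297 nt to gamma constant exon 1 had 31 reads (15 and 16), and one with an intron of 2889 nt had 4 reads (4 and 0). In the alpha cluster an unannotated donor with an intron of 11721 nt had 5 reads (5 and 0) and one with an intron of 10736 nt had 4 (1 and 3). No group held 4 or more samples, so no sample was compared with the others of its group.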

How the results depend on the processing

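No paired analysis was possible because the series has 1 group of 2 replicates. The count of members that differed between libraries was 25, beside 28.7% of all genes. It was 21 to 26 under the other scalings, count minimums and the restriction to protein-coding transcripts. The shares of all genes there were 22.8% to 32.9%. The 21 came with plain totals, beside 31.2% of all genes. The count was 0 under the negative binomial test (1.31% of all genes) and 11 by credible ranges (18.4%). For the pathway lists the count was 24, with 28 under plain totals and 1 under the negative binomial test. The median log2 ratio of the members was 0.08 and turned to -0.072 as a ratio of TPM values, where all genes had -0.16.

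The C-type median was 10.3 times that of the other members, 5.58 times by mm9 exon RPKM, 10.8 times by counts per library total, 4.70 times over transcripts with the full variable exon (an alternative added after the data were seen) and 9.87 to 10.5 times with 1 replicate left out. The gamma-A and gamma-B median was 1.56 times the beta median, and 1.54 by posterior mean TPM, 2.90 by mm9 exon RPKM, 1.66 by counts, 1.45 over full variable exons and 1.69 with either replicate left out (1.691 and 1.694). The alternative alpha median was 1.08 times the beta median, 0.631 by mm9 exon RPKM, 1.19 by counts and 0.889 over full variable exons, with 0.965 to 1.07 when a replicate was left out. Its direction turned by mm9 exon RPKM, over full variable exons and without replicate 1. The mm9 ratios cover only the 39 members with an mm9 exon of their own. Pcdha4 and Pcdha5 are not among them, so these ratios differ from the TPM ratios in genes as well as in readout.

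By expected counts, junction reads and full variable exons, the cluster share of Pcdhac2 (27.1%) was 30.1%, 28.0% and 28.7%, that of Pcdhgc3 (11.8%) was 16.3%, 21.7% and 20.2%, and that of Pcdhgc4 (26.3%) was 18.3%, 4.34% and 2.79%. That of Pcdhgc5 (30.1%) was 22.0% by expected counts and 24.7% over full variable exons. The cause of these differences was not tested. With 1 replicate left out, these shares were 26.9% to 27.3%, 11.6% to 12.1%, 25.7% to 27.0% and 29.5% to 30.7%, which with 2 libraries restates their spread and tests nothing. Detection at 1 TPM (53 members) gave 57 at 0.5 TPM, 39 at 2 TPM and 49 by the lower credible bound. Depth limits Pcdhb1 (9 counts in all) and the junction shares of Pcdha8 and Pcdhgb8 (5 and 2 reads).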
